A study of Mus musculus with 6 samples.

Results

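The neuropeptide genes described here are Sst, Vip, Npy, Tac1, Cck, Penk, Pdyn, Crh, Cort and Vgf, taken by their symbols from the gene list of the count tables, which gave 10 of 32285 genes. The data are 6 single-nucleus RNA-Seq libraries of prelimbic cortex (PL), the part of the medial prefrontal cortex studied here, from male C57BL/6 mice, each library pooled from 3 mice. Run mice had been raised by mothers with a running wheel and Sed mice by sedentary mothers, and after weaning they lived in groups (GH) or alone (SI). Cohort 1 had been tested for behavior and gave a RunGH and a SedGH library. The paper describes the Run and Sed males of these libraries as top and bottom ranking in their groups, with nuclei isolated a day after the last tube test. If this means top Run and bottom Sed males, choice by rank cannot be told apart from maternal environment in cohort 1. Cohort 2 was naive and gave a RunGH, a SedGH, a RunSI and a SedSI library. The labels give postnatal day 21, the day of weaning, while the study's methods describe adult mice. All groups were males of 1 strain, and the pooling means that 1 library stands for 3 mice whose values cannot be separated.

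Neuropeptides are made as precursor proteins, cut by proprotein convertases, packed into dense core vesicles and released to act on G protein-coupled receptors. In the cortex most of them mark types of inhibitory interneurons. Somatostatin (Sst) and vasoactive intestinal peptide (Vip) name interneuron classes, neuropeptide Y (Npy) is found in neurogliaform cells and in a rare long-range type with nitric oxide synthase (Nos1), and cholecystokinin (Cck) is found in a set of basket cells and in pyramidal neurons. Tac1 encodes the precursor of substance P, Penk and Pdyn encode the precursors of the enkephalins and dynorphins, Crh encodes corticotropin-releasing hormone, Cort encodes cortistatin, which resembles somatostatin, and Vgf encodes a precursor of several peptides that is made by many neurons.

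The 10 genes span 1386 to 13280 bases, with 566 to 2834 exonic bases in the longest annotated transcript (GENCODE M21, mm10). They lie on 8 chromosomes, with Penk and Cort on chromosome 4 and Tac1 and Npy on chromosome 6. Sst lies at chr16:23889573-23890958 on the minus strand and Vip at chr10:5639218-5647617 on the plus strand. Of the 10 genes, 1 overlaps another gene of the annotation: 499 bases of Penk are shared with A830012C17Rik on the other strand, so reads there could be split if the counting had ignored strand. Several peptide genes are known targets of cyclic AMP signaling, and their promoters were searched for the cyclic AMP response element, TGACGTCA, and its shorter core, TGACG, on both strands. In promoters from 250 bases before to 50 bases after the gene start (RefSeq, GRCm38.p6), the full element was in 1 of the 7 genes that had a promoter, Sst, beside 1.79% of 32851 promoters. The core was in 5 of the 7 genes, beside 20.8% of promoters. The sites are shown because they set the letters of these promoters beside the levels that follow. Capitals mark the element or the core (TGACG, or CGTCA on the other strand), which in Sst lies inside the full element. Starts here are those of RefSeq, which can differ from the GENCODE positions. By GENCODE, Tac1 starts at chr6:7554879, and the Tac1 and Sst sites shown lie inside the genes. A match describes the letters only.
Sst (full element, chr16:23890877-23890900, minus strand): tccttggcTGACGTCAgagagaga
Vip (core, chr10:5639131-5639151, plus strand): cactactgTGACGtctttcgg
Cck (core, chr9:121495729-121495749, minus strand): ctggactgCGTCAgcactggg
Cort (core, chr4:149126769-149126789, minus strand): ggcttgtgCGTCAccgcgtga
Tac1 (core nearest the gene start, chr6:7555010-7555030, plus strand): tacaggctCGTCAcgcctgag
No promoter entry was found for Penk, Crh and Vgf.

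The libraries gave 4997 to 9936 nuclei each, 42597 in all, and the median nucleus held 1637 to 6250 unique molecular identifiers (UMIs), the molecule tags that are counted once each. Droplets without a nucleus also carried RNA. The mean background droplet held 1064 and 1192 UMIs in cohort 1, which was 19.1% of the median nucleus in both libraries, and 90.4 to 327 UMIs in cohort 2, or 4.65% to 8.26%. Pairs of libraries shared 5 to 22 nuclear barcodes. Marker lists named 34137 pyramidal nuclei, 1606 PV-like, 1290 SST-like, 463 VIP-like, 488 NPY-like (Lamp5 type) and 310 SNCG-like interneuron nuclei, and 1346 astrocyte nuclei, all without use of the 10 genes. A cluster of 53 nuclei with Nos1 among its leading genes was set apart after the clusters were seen and is called Nos1-led. A cluster of 51 nuclei carried striatal or septal markers, 50 of them from RunGH of cohort 1 and 1 from SedGH of cohort 1, and these markers belong to regions outside the PL.

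Every one of the 10 genes was poorer in nuclei than in the background droplets of the same library. Levels are given as CPM, the UMIs of a gene scaled to a common total of UMIs per sum, which compares samples and classes within a gene and not genes of different length. For Cck, nuclei held 37.8 and 23.4 CPM in RunGH and SedGH of cohort 1 and 116, 86.0, 98.7 and 77.9 CPM in RunGH, SedGH, RunSI and SedSI of cohort 2, against 130 and 55.9 CPM and 1364, 1344, 1164 and 1411 CPM in background droplets. Cck was thus 2.39 to 18.1 times richer in background droplets, and nuclei and background did not overlap within a cohort. For Sst, nuclei held 10.5 and 6.82 CPM in RunGH and SedGH of cohort 1 and 29.7, 18.1, 29.4 and 17.0 CPM in RunGH, SedGH, RunSI and SedSI of cohort 2, against 48.0 and 22.2 CPM and 344, 330, 354 and 343 CPM in background droplets. Sst had the largest difference of the 10 genes on the log2 scale.

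In edgeR's quasi-likelihood test with the library as a block, 10 of 10 genes were called lower in nuclei, beside 30.4% of all 19600 genes tested (58.7% called in either direction). The log2 difference was -3.15 ± 0.35 (SE, n = 6 libraries) for Sst, with an edgeR adjusted p of 0.00084. It was -2.96 ± 0.42 for Cck, with an edgeR adjusted p of 0.0015, and -2.03 ± 0.35 for Pdyn, the smallest of the 10, with an edgeR adjusted p of 0.0026. The other 7 genes lay between these values. Each gene was lower in nuclei in 6 of 6 libraries, which was true of 23.8% of genes with at least 100 counts. A spliced transcript in the cytoplasm and a nuclear one cannot be told apart in these counts.

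**Figure D1:**
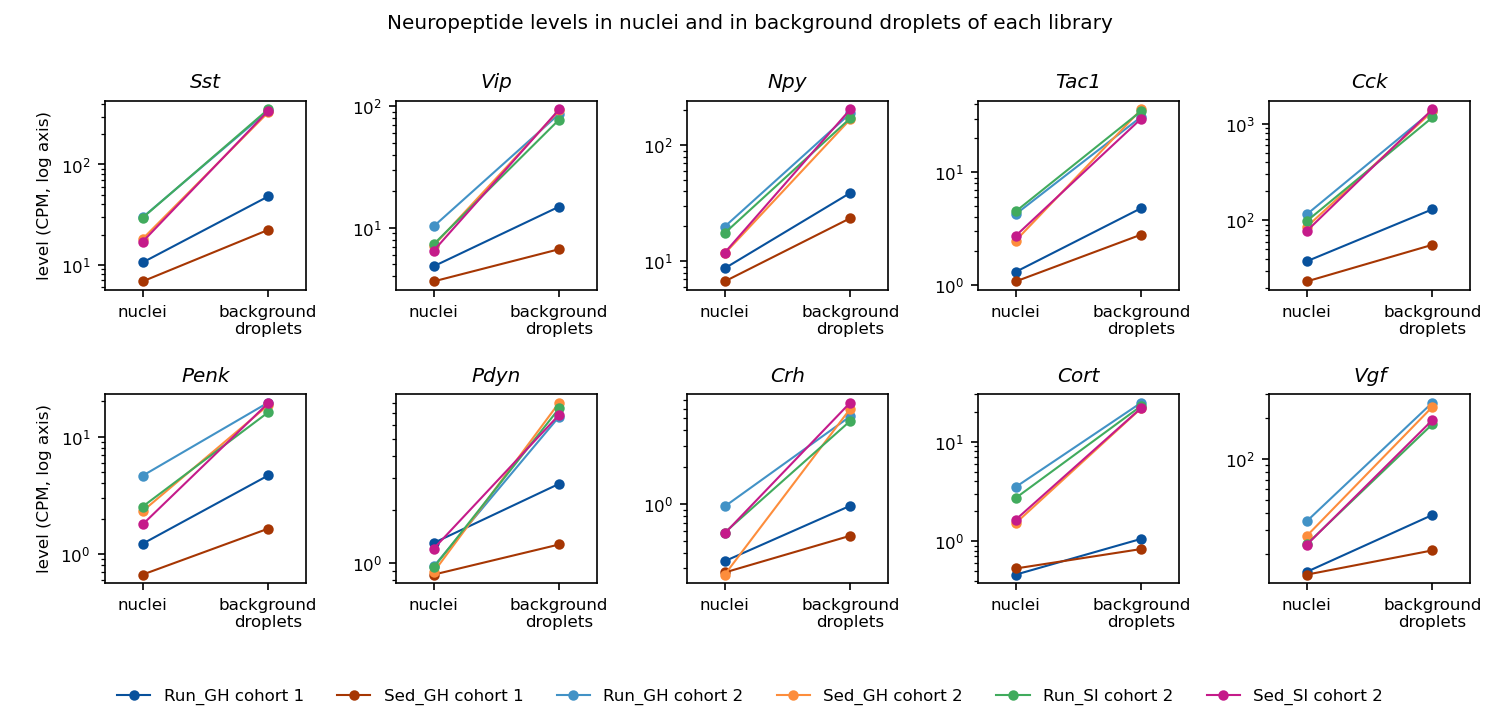
Level of each neuropeptide gene (CPM, log axis) in the nuclei and in the background droplets of each of the 6 libraries, with a line joining the 2 values of a library. Each line rises to the right, and the 4 cohort 2 lines end above the 2 cohort 1 lines for every gene.

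To place each level beside the free RNA, the UMIs of a gene in a class were divided by the number expected if each nucleus had been in a droplet with as much RNA as the mean background droplet of its library. Over all nuclei, this expected number was 81.2% of the observed UMIs for Sst, 75.9% for Cck, 69.1% for Npy, 59.1% for Vip, 53.8% for Tac1, 52.7% for Cort, 46.9% for Crh, 45.6% for Vgf, 40.9% for Penk and 39.2% for Pdyn. The share of all UMIs of a gene found in pyramidal nuclei, the largest class, ran from 47.6% for Crh to 81.0% for Cck. In pyramidal nuclei the observed UMIs were 1.09 times the expected number for Sst, 1.11 for Vip, 1.13 for Tac1 and 1.19 for Npy. They were 1.35 times it for Cck and 2.02 for Penk. Background droplets may also hold damaged nuclei, and the expected numbers rest on taking them as free RNA.

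Several of the genes stood far above that rate in 1 or 2 interneuron classes. Vip stood 40.0 times over the expected number in VIP nuclei (326 UMIs against 8.15 expected) and 13.9 times over it in SNCG nuclei (77 UMIs against 5.56). In the other 7 of the 9 classes with at least 20 nuclei in 4 libraries, Vip stayed under 1.5 times the expected number. In VIP nuclei, Vip held 168 and 187 CPM in RunGH and SedGH of cohort 1 and 267, 320, 201 and 326 CPM in RunGH, SedGH, RunSI and SedSI of cohort 2. The mean was 245 CPM ± 69.1 (SD, n = 6 libraries), and the 71.8 CPM ± 41.5 of SNCG nuclei, the next class, was lower in 6 of 6 libraries, with no overlap between the classes.

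The same class carried Crh and Penk, and Crh also stood high in SST nuclei. Crh had 16 UMIs in VIP nuclei against 0.523 expected (30.6 times) and 12 in SST nuclei against 1.49 (8.05 times), with 103 UMIs in all nuclei. Crh held 3.4 and 11.3 CPM in VIP nuclei of RunGH and SedGH of cohort 1, and 15.9, 0, 24.6 and 8.58 CPM in RunGH, SedGH, RunSI and SedSI of cohort 2. Penk had 32 UMIs in VIP nuclei against 1.97 expected (16.3 times). Its level there was 1.70 and 5.65 CPM in RunGH and SedGH of cohort 1, and 67.7, 0, 24.6 and 60.0 CPM in RunGH, SedGH, RunSI and SedSI of cohort 2. Both genes had no UMI in the 42 VIP nuclei of SedGH of cohort 2, which allows up to 3 UMIs there.

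Among the 9 classes, Sst was richest in SST nuclei, with 438 UMIs against 92.7 expected (4.72 times). Its level there was 42.1 and 47.5 CPM in RunGH and SedGH of cohort 1, and 143, 104, 112 and 107 CPM in RunGH, SedGH, RunSI and SedSI of cohort 2. The mean of 92.5 CPM ± 39.6 (SD, n = 6 libraries) was higher than that of the next class, oligodendrocyte precursors (55.9 CPM ± 59.2), in 5 of 6 libraries. In those precursor nuclei Sst was at 1.3 times the background rate, so the order by CPM and the order by background rate differed below the first place. Pdyn was 23.3 times over the expected number in SST nuclei, with 58 UMIs. Its level was 14.8 and 17.7 CPM in RunGH and SedGH of cohort 1, and 6.76, 7.67, 8.31 and 10.2 CPM in RunGH, SedGH, RunSI and SedSI of cohort 2, so the 2 cohorts did not overlap. The edgeR difference of cohort 2 from cohort 1 did not pass the test (-1.23 ± 0.57, SE, edgeR adjusted p of 0.12).

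Npy had its highest level in the Nos1-led nuclei, with 89 UMIs against 2.28 expected (39.0 times). There it held 105 and 280 CPM in RunGH and SedGH of cohort 1, and 856, 714, 453 and 483 CPM in RunGH, SedGH, RunSI and SedSI of cohort 2. A UMI of Npy was found in 35 of 53 of these nuclei (66.0%, 95% exact binomial interval 51.7% to 78.5%). In NPY nuclei Npy was 6.76 times over the expected number, with 136 UMIs and 77.3 CPM ± 39.8 (SD, n = 6 libraries), and in SST nuclei 3.43 times, with 185 UMIs and 39.4 CPM ± 18.3. NPY nuclei were above SST nuclei in 6 of 6 libraries, although the ranges overlapped. The same Nos1-led nuclei held 28 UMIs of Sst against 4.06 expected (6.90 times), at a mean of 127 CPM ± 117 (SD, n = 6 libraries) that was above the mean of SST nuclei, with 1 library at 0.

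PV nuclei, a class that includes fast-spiking basket cells, carried Tac1 and Cort. Tac1 had 156 UMIs there against 10.9 expected (14.3 times), at 7.60 and 11.6 CPM in RunGH and SedGH of cohort 1 and 42.0, 20.4, 44.8 and 33.4 CPM in RunGH, SedGH, RunSI and SedSI of cohort 2. PV nuclei held 29.2% of all Tac1 UMIs and were above the next class, NPY nuclei, in 6 of 6 libraries. Cort had 70 UMIs in PV nuclei against 6.64 expected (10.5 times) and 16 in SST nuclei against 5.62 (2.85 times). Its level in PV nuclei ran from 0 CPM in SedGH of cohort 2 to 26.8 CPM in RunGH of cohort 2, and PV nuclei were above SST nuclei in 5 of 6 libraries.

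A further 731 inhibitory nuclei, 715 of them from cohort 2, could not be given a class by their markers, so the counts above may leave out part of some classes. Which classes they belong to was not tested. In the unnamed inhibitory nuclei Penk stood 10.2 times over the expected number, with 32 UMIs, Tac1 8.12 times, with 46 UMIs, and Crh 7.60 times, with 7 UMIs. Vip was at 3.63, Npy at 2.36, Sst at 1.65 and Cck at 1.23 times the expected number there, and Pdyn had 1 UMI. Penk thus had as many UMIs in these nuclei as in VIP nuclei.

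Cck and Vgf were spread over many classes. Cck reached 2.00 times the expected number in SNCG nuclei (149 UMIs against 74.7) and was under 1.5 times it in the other 8 of 9 classes. By CPM alone, Cck was highest in oligodendrocyte precursors (170 CPM ± 109, SD, n = 6 libraries) and oligodendrocytes (163 CPM ± 112), which did not differ beyond their spread, where it stood at 1.3 and 1.2 times the background rate. In pyramidal nuclei it held 71.1 CPM ± 33.7, at 1.35 times the background rate. These ratios pool the 6 libraries, and in pyramidal nuclei of single libraries the ratio of Cck ran from 1.19 to 2.62. Over all nuclei it was 1.75 and 2.45 in RunGH and SedGH of cohort 1, and 1.17 to 1.37 in cohort 2. Vgf was over the expected number in 6 of 6 libraries in pyramidal nuclei (2.17 times) and in PV, SST, VIP, NPY and SNCG nuclei (2.35 to 3.54 times). Its ratio was 3.06 in layer 5 extratelencephalic-like (L5 ET) pyramidal nuclei, and the level in L5 ET nuclei was 25.4 CPM ± 4.11 (SD, n = 6 libraries).

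Within pyramidal nuclei, the opioid precursors Penk and Pdyn were unevenly spread over the layers, as a description with no test. Penk was 4.77 times over the expected number in deep intratelencephalic-like (deep IT) nuclei, with 60 UMIs, and 2.98 times in L2/3 nuclei, with 124 UMIs, and was above the background rate in 6 of 6 libraries in both. In L6 corticothalamic-like (L6 CT) nuclei it was 1.1 times the background rate. Pdyn was 3.25 times over the expected number in L2/3 nuclei, with 65 UMIs. Counts per library were as low as 3 UMIs for Penk in deep IT nuclei. In the 51 striatal or septal nuclei Penk and Tac1 each had 8 UMIs, 1.9% and 1.5% of their UMIs in all nuclei.

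**Figure D2:**
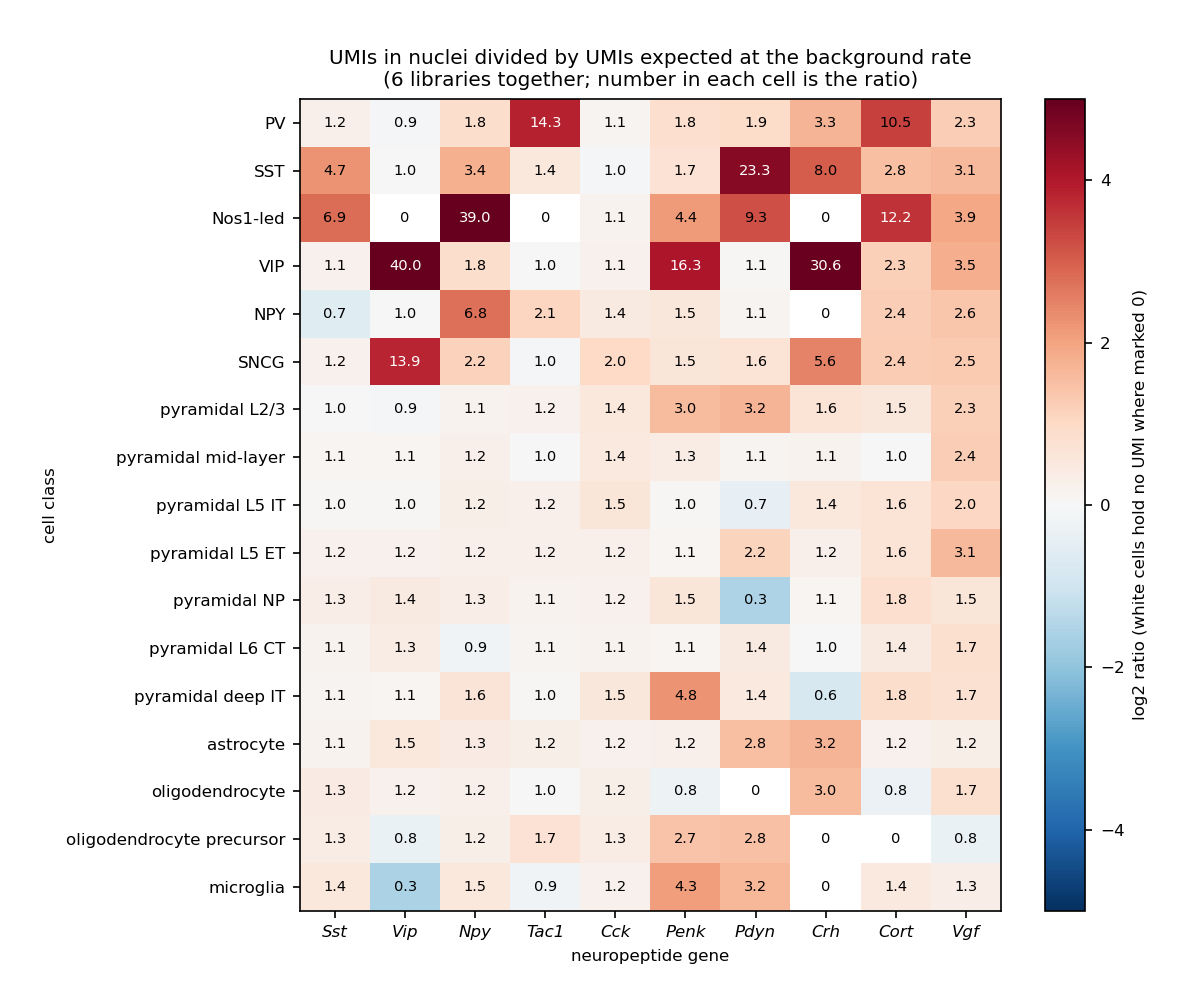
UMIs of each neuropeptide gene in each class divided by the UMIs expected at the rate of background droplets, over the 6 libraries together (color: log2 of the ratio, with blue under and red over 1). Vip, Crh and Penk are high in VIP nuclei, Npy in Nos1-led nuclei, Pdyn and Sst in SST nuclei and Tac1 and Cort in PV nuclei. Cck does not exceed 2.0 with the libraries pooled.

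Shares of nuclei with a UMI were compared after each nucleus was thinned to 1000 UMIs, which left out 882 nuclei of SedGH of cohort 2 and none elsewhere. A UMI of Vip was then found in 17.9% of VIP nuclei (95% exact binomial interval 14.4% to 21.8%) against 1.09% of astrocyte nuclei. Before thinning, Vip was found in 40.0% of VIP nuclei against 2.38% of astrocyte nuclei. For Sst the thinned shares were 9.91% of SST nuclei (8.31% to 11.7%) and 3.49% of astrocyte nuclei, and for Npy they were 11.1% of NPY nuclei (8.39% to 14.4%) and 2.17% of astrocyte nuclei. For Cck the share in pyramidal nuclei (7.82%, 7.53% to 8.11%) was under that in astrocyte nuclei (12%), and for Vgf it was 2.44% against 2.95%. Before thinning the order was the reverse, with 26.5% of pyramidal and 22.8% of astrocyte nuclei for Cck and 9.15% and 5.65% for Vgf. Per 100 nuclei, Vgf had 9.97 UMIs in pyramidal and 5.72 in astrocyte nuclei, and Cck had 32.6 and 27.5. No order between these classes is read from the thinned shares of Cck and Vgf. Over the 5 genes, astrocyte nuclei stood at 1.13 to 1.46 times the background rate. The intervals cover counting error only.

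Within a class, pairs of genes were also looked for in the same nucleus. Among VIP nuclei with a UMI of Vip, 9.19% had a UMI of Penk (17 of 185), against 3.96% of VIP nuclei without one (11 of 278). The gap differed between libraries. Without SedSI the shares were 6.67% (11 of 165) and 4.30% (11 of 256), and without RunGH of cohort 2 they were 7.80% (11 of 141) and 1.42% (3 of 211). For Crh these shares were 4.32% (8 of 185) and 2.16% (6 of 278), with 3.18% and 2.49% without SedGH of cohort 1 and 4.49% and 1.29% without RunSI. Among SST nuclei with a UMI of Sst, 13.9% had a UMI of Npy (46 of 332), against 12% of those without (115 of 958). Nuclei with more UMIs hold more of any gene, and these shares were not corrected for it, so they are a description.

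**Figure D3:**
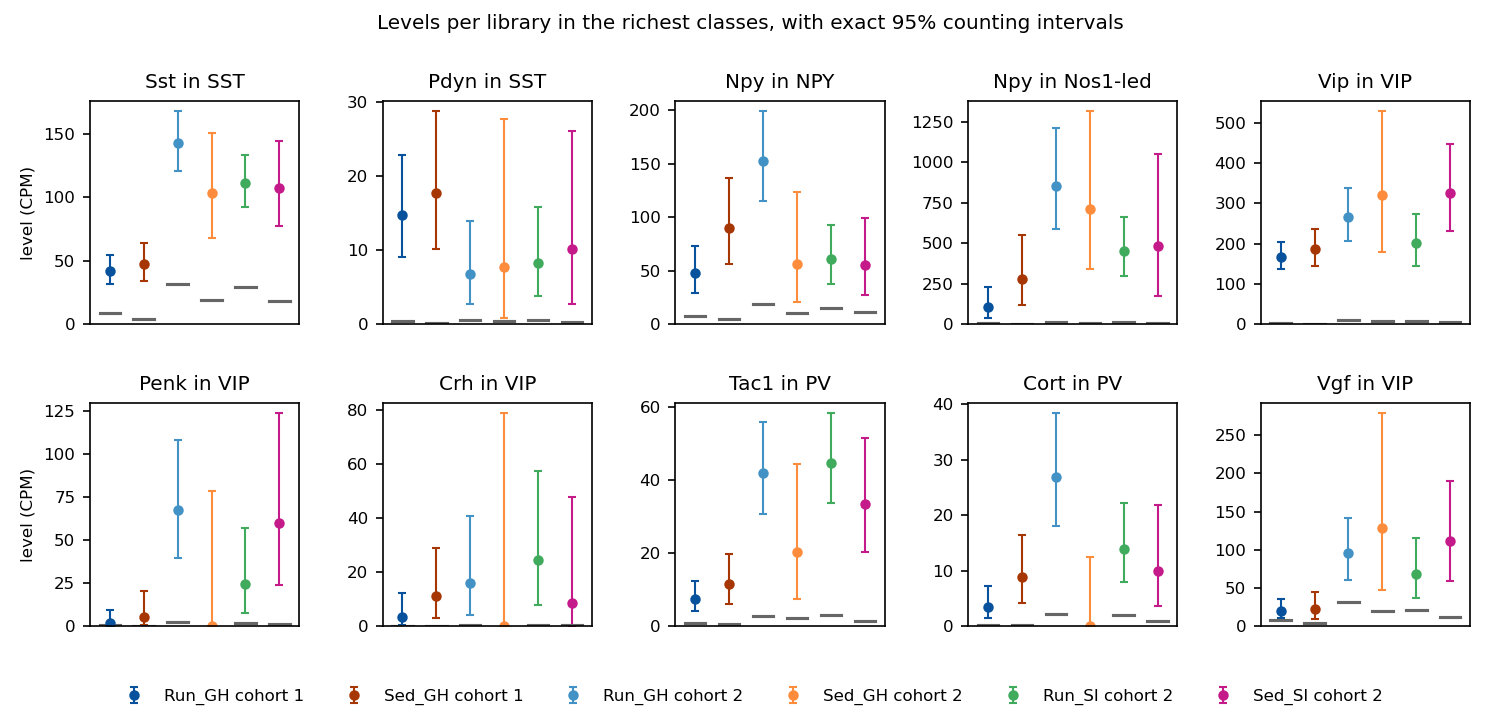
Level (CPM) of 9 of the genes in 1 or 2 of the classes where they stood highest over background, for each library (points, with bars for the exact 95% Poisson interval). Grey lines mark the level expected at the background rate; no line is drawn where the level was 0. In cohort 2 the levels of Sst in SST nuclei sit between 104 and 143 CPM and in cohort 1 at 42.1 and 47.5 CPM.

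Cohort 2 had higher neuropeptide levels than cohort 1. In all nuclei, 8 of the 10 genes were called higher in cohort 2, beside 20.9% of all 18761 genes (39.3% called in either direction), in the edgeR fit with cohort, maternal environment and housing as terms. Over the 6 groups of nuclei tested (all nuclei, pyramidal, PV, SST, VIP and NPY), 29 of 39 tests of a gene in a class were called, each of them higher in cohort 2. By class these were 8 of 10 genes in pyramidal nuclei, beside 20.3% of all genes called higher (38.3% in either direction), and 4 of 6 in PV nuclei, beside 15.4% (29.3%). They were 4 of 5 in SST nuclei, beside 14.4% (25.9%), 3 of 5 in VIP nuclei, beside 7.95% (12.9%), and 2 of 3 in NPY nuclei, beside 8.08% (12.6%). Classes were clustered and named apart in each cohort, and 715 of the 731 inhibitory nuclei without a class were from cohort 2. The make-up of a class and the cohort thus cannot be told apart. The cohort term compares the GH libraries of the cohorts, since SI libraries are all of cohort 2. Its SE and p rest on how far the Run to Sed difference varied between pairs, not on a spread between cohorts. Cort had a log2 difference of 2.17 ± 0.38 (SE, n = 6 libraries in the fit) in all nuclei and an edgeR adjusted p of 0.0081. Cck had 1.59 ± 0.14, with an edgeR adjusted p of 0.0013, and Sst had 1.3 ± 0.12, with an edgeR adjusted p of 0.0015. Crh (0.90 ± 0.51) and Pdyn (-0.39 ± 0.37) did not pass the test, with edgeR adjusted p of 0.20 and 0.43.

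After thinning to 1000 UMIs, 8 of 9 genes tested were called higher in all nuclei, beside 22.5% of all genes, and 6 of 8 in pyramidal nuclei, beside 22.4%. In PV nuclei 2 of 4 were called (beside 11.6%), in SST nuclei 2 of 2 (12.7%), in VIP nuclei 0 of 2 (4.17%) and in NPY nuclei 1 of 1 (5.5%). Without RunGH of cohort 2, 4 of 10 genes were called higher in all nuclei, beside 13% of all genes, and 4 of 10 in pyramidal nuclei, beside 10.3%. In PV nuclei 1 of 6 was then called (beside 6.25%), in SST nuclei 2 of 5 (5.09%), in VIP nuclei 0 of 6 (1.19%) and in NPY nuclei 1 of 3 (2.02%).

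Background droplets differed between the cohorts in the same direction and by more, but the droplets were not alike. Mitochondrial UMIs made up 0.193% and 0.0767% of their UMIs in RunGH and SedGH of cohort 1, and 2.28% to 4.14% in cohort 2. Barcodes within the gene and mitochondrial limits for nuclei numbered 82376 and 103391 in RunGH and SedGH of cohort 1, and 5687 to 10532 in cohort 2. The part of this in the ratios below was not tested. The ratios set the mean of the GH and SI libraries of cohort 2 against that of the GH libraries of cohort 1, so they also hold housing. Cck was 3.09 times higher in cohort 2 nuclei and 14.2 times higher in cohort 2 background droplets. For Sst these ratios were 2.71 and 9.77, for Cort 4.74 and 24.2, and for Vgf 1.89 and 7.29. Pdyn was 0.926 times as high in cohort 2 nuclei but 3.56 times as high in background droplets. When the UMIs expected from background were subtracted from each sum, 5 of 32 tests were called, beside 32% of genes in all nuclei, 29.8% in pyramidal, 17.4% in PV, 13.6% in SST, 2.13% in VIP and 4.67% in NPY nuclei. Those 5 were Penk in all nuclei (2.17 ± 0.38, SE, edgeR adjusted p of 0.010) and in pyramidal nuclei (2.34 ± 0.54, edgeR adjusted p of 0.024), Sst in SST nuclei (1.24 ± 0.26, edgeR adjusted p of 0.0075), Tac1 in PV nuclei (1.68 ± 0.46, edgeR adjusted p of 0.022) and Vgf in PV nuclei (1.63 ± 0.54, edgeR adjusted p of 0.048). Behavioral testing, the choice of mice by rank, the experiment, the separate naming of classes and the libraries of a cohort cannot be told apart.

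Run libraries had higher levels of most of the 10 genes than Sed libraries in all nuclei, but no gene passed the test. Sst held 10.5 CPM in RunGH and 6.82 CPM in SedGH of cohort 1, 29.7 and 18.1 CPM in cohort 2, and 29.4 CPM in RunSI and 17.0 CPM in SedSI. The log2 ratios of Run to Sed were 0.63 (95% counting interval 0.41 to 0.85), 0.71 (0.50 to 0.94) and 0.80 (0.62 to 0.97). For Npy they were 0.38 (0.15 to 0.61), 0.77 (0.50 to 1.05) and 0.56 (0.35 to 0.78). For Cck they were 0.69 (0.58 to 0.81), 0.43 (0.33 to 0.53) and 0.34 (0.26 to 0.43). These 3 genes had intervals above 0 in all 3 pairs, beside 4.6% of genes with at least 100 counts, and 8 of 10 genes had a ratio above 0 in all 3 pairs, beside 22.5% of genes with at least 100 counts. Cort was lower in Run in cohort 1 (-0.20, -1.13 to 0.74), and Pdyn was lower in RunSI than in SedSI (-0.35, -1.12 to 0.44).

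In the edgeR fit over the 6 libraries, 0 of 39 tests were called, and 0 of 18761 genes in all nuclei (0%). Of all genes, 0% were called in pyramidal, 0.0866% in PV, 0.0509% in SST, 0.0431% in VIP and 0.0688% in NPY nuclei. At an unadjusted p under 0.05, edgeR counted 1549 genes in all nuclei. Sst had a log2 difference of 0.65 ± 0.10 (SE, n = 6 libraries) and an edgeR adjusted p of 0.59. DESeq2 called 2 tests, Sst in all nuclei (0.66 ± 0.16, DESeq2 adjusted p of 0.0067) and in pyramidal nuclei (0.73 ± 0.19, DESeq2 adjusted p of 0.025), beside 0.442% and 0.306% of all genes. In pyramidal nuclei the UMIs of Sst, Npy, Cck and Vip were at 1.09, 1.19, 1.35 and 1.11 times the background rate. Leaving out either library of cohort 1 leaves the maternal term to cohort 2, and 8 and 9 tests were then called without RunGH and without SedGH, in all nuclei and pyramidal nuclei alone. In all nuclei without RunGH of cohort 1 these were Sst, Npy, Cck and Cort, beside 14.1% of genes, and without SedGH also Tac1, beside 16% of genes. In pyramidal nuclei they were Sst, Npy, Cck and Vip in both, beside 11.8% and 12.7% of genes.

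Within interneuron classes the direction differed between genes. Sst in SST nuclei had ratios of -0.17 (-0.77 to 0.43), 0.46 (-0.13 to 1.11) and 0.06 (-0.46 to 0.60), and its fitted difference was 0.10, with an edgeR adjusted p of 0.97. Vip in VIP nuclei had -0.15 (-0.61 to 0.32), -0.26 (-1.09 to 0.65) and -0.69 (-1.37 to -0.02), and a fitted difference of -0.34, with an edgeR adjusted p of 0.99. Vip in VIP nuclei was thus lower in Run in 3 of 3 pairs, as were Pdyn in SST nuclei and Vgf in VIP nuclei. The share of all genes with the same sign in 3 of 3 pairs was not counted in interneuron classes, so such signs are a description only. Cck was higher in Run in 3 of 3 pairs in PV, SST, VIP, NPY and SNCG nuclei, where its UMIs were at 1.09, 0.96, 1.15, 1.37 and 2.00 times the background rate. With background subtracted, its fitted difference in PV nuclei was -0.04 ± 0.72 (SE). In PV nuclei its ratios were 0.95 (0.21 to 1.74), 0.40 (-0.17 to 1.02) and 0.87 (0.31 to 1.46), and in SST nuclei 1.14 (0.09 to 2.33), 0.14 (-0.48 to 0.82) and 0.86 (0.19 to 1.59). Intervals above 0 in all 3 pairs were found for 4 genes in pyramidal nuclei, beside 3.81% of genes with at least 100 counts there, and for none in PV, SST, VIP or NPY nuclei, where the counts were far lower.

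The libraries also differed in free RNA, depth and class shares. In background droplets, 9 of 10 genes had an interval above 0 for Run to Sed in cohort 1 (Cck 1.22, Sst 1.11), beside 51% of genes with at least 100 counts in these droplets, while in cohort 2 the ratios were 0.02 and -0.28 for Cck and 0.06 and 0.05 for Sst. The median nucleus held 5585 UMIs in RunGH and 6250 in SedGH of cohort 1, 3396.5 in RunGH and 1637 in SedGH of cohort 2, and 4033 in RunSI and 3600 in SedSI, so Run was the deeper library in 2 of 3 pairs. The background droplet was 19.1% of the median nucleus in RunGH and SedGH of cohort 1, and was 8.26% and 8.10% of the median nucleus in RunGH and RunSI of cohort 2, against 5.52% and 4.65% in SedGH and SedSI. Inhibitory nuclei were 10.9% and 9.32% of nuclei in RunGH and SedGH of cohort 1, 12.5% and 10.8% in RunGH and SedGH of cohort 2, and 12.6% and 12.5% in RunSI and SedSI. With background subtracted, the fitted difference of Sst in all nuclei was 0.33 ± 0.25 (SE), that of Npy was 0.32 ± 0.23 and that of Cck was -0.20 ± 0.17. The part of depth, free RNA and class shares in the ratios was not tested.

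**Figure D4:**
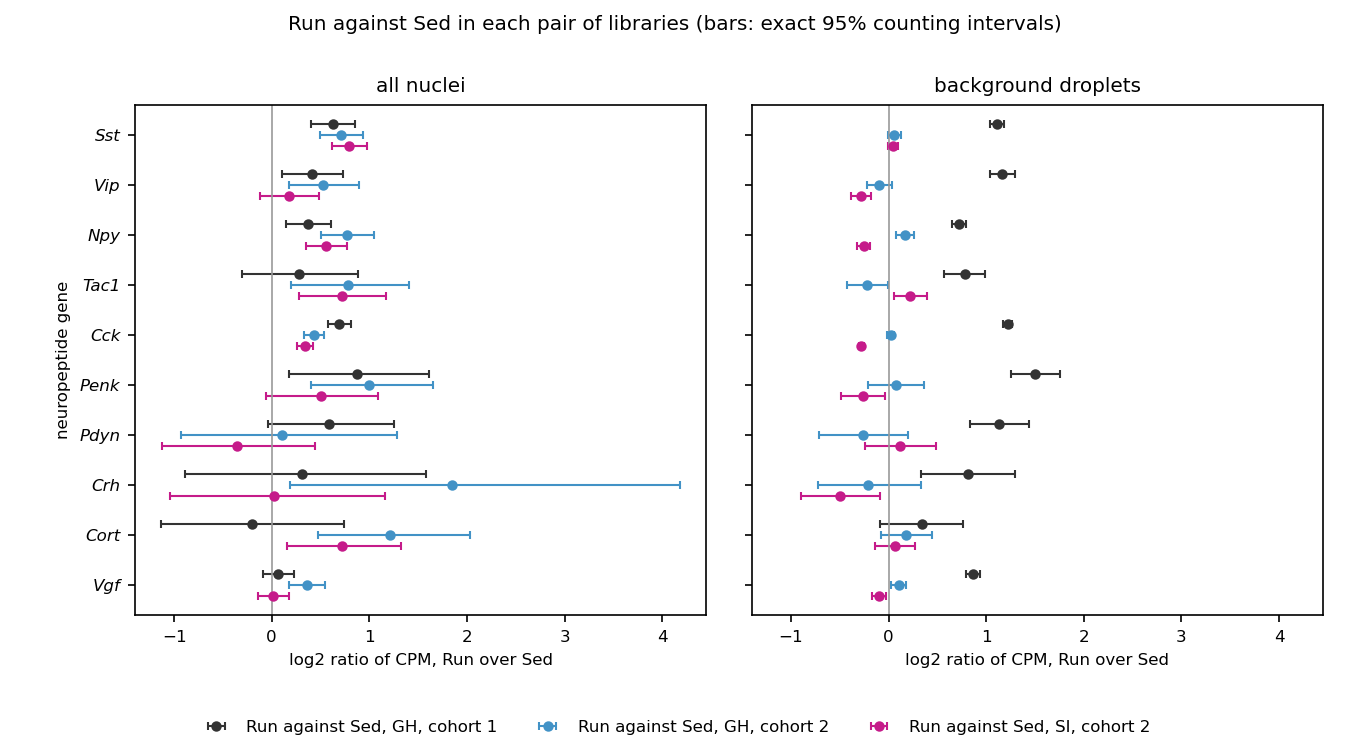
Log2 ratio of CPM, Run over Sed, for each gene in all nuclei (left) and in background droplets (right), in each of the 3 pairs of libraries, with exact 95% counting intervals. In all nuclei the points of Sst, Npy and Cck lie right of 0 in every pair, and in background droplets the cohort 1 points lie right of the cohort 2 points.

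The maternal difference was also compared between cohorts, of which only cohort 1 held mice chosen by rank. In all nuclei, 1 of 10 genes was called by the interaction term, Cck, with a log2 difference in cohort 2 that was lower than that in cohort 1 (-0.43 ± 0.14, SE, edgeR adjusted p of 0.047), beside 10.4% of all genes. In the other groups of nuclei none of the 10 was called, beside 9.03% of genes in pyramidal, 0.971% in PV, 0.686% in SST, 0.157% in VIP and 0% in NPY nuclei. Cck was higher in Run in all 3 pairs. This fit has 1 residual degree of freedom, which comes from the GH and SI pairs of cohort 2.

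Housing gave 0 calls in 39 tests, beside 0% of genes in all nuclei. In SST nuclei, 0.0102% of genes were called, and elsewhere none. At an unadjusted p under 0.05, edgeR counted 169 genes in all nuclei, and DESeq2 called none of the 10 genes. Of the 10, Vgf and Cck had intervals below 0 for SI to GH in both pairs of cohort 2, beside 1.95% of genes with at least 100 counts. For Vgf, nuclei held 35 CPM in RunGH and 23.7 CPM in RunSI (log2 ratio -0.56, -0.68 to -0.44), and 27.3 CPM in SedGH and 23.5 CPM in SedSI (-0.22, -0.43 to -0.01). The fitted difference of Vgf was -0.39 ± 0.13 (SE, n = 6 libraries) and its edgeR adjusted p was 1.00. In background droplets Vgf was lower in SI too, with ratios of -0.53 and -0.32 in the Run and Sed pairs. For Cck the ratios were -0.23 and -0.14 in nuclei and -0.23 and 0.07 in background droplets. In PV nuclei Vgf and Cck also had intervals below 0 in both pairs, and the share of all genes was not counted there. Their fitted differences in PV nuclei were -1.21 ± 0.35 and -0.51 ± 0.22 (SE), and 2 of the 6 genes tested there had differences above 0. Npy in NPY nuclei had -1.07 ± 0.38, with an interval below 0 in 1 pair. None of these was called.

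Genes of the peptide pathway were read from lists chosen with earlier results of these data known. Of 16 genes that cut peptide precursors or fill and dock dense core vesicles, 8 were lower and 4 higher in nuclei than in background droplets, beside 30.4% of all genes lower and 28.3% higher. Scg2, which encodes a granin (-2.52 ± 0.28, SE, edgeR adjusted p of 0.00084), and Pcsk1n, an inhibitor of a convertase (-2.88 ± 0.36, edgeR adjusted p of 0.0010), were among the genes called lower. A list of other neuropeptides also held Crhbp, which encodes a binding protein of the Crh peptide. Of the 14 genes of that list tested, 13 were lower and none higher, among them Tac2 (-2.92 ± 0.40, edgeR adjusted p of 0.0014) and Adcyap1 (-1.82 ± 0.20, edgeR adjusted p of 0.00081). The median log2 difference was -2.01 for those genes, -0.35 for the pathway genes, -0.44 for 19 receptors of the peptides and 0.03 for all genes. Of the 19 receptors 7 were lower and 5 higher, near the shares of all genes. Among those higher was Oprd1, the delta opioid receptor (1.71 ± 0.16, edgeR adjusted p of 0.00075).

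Between cohorts in all nuclei, 6 of 11 genes tested from the list of other neuropeptides were higher in cohort 2 and none lower, beside 20.9% of all genes higher and 18.4% lower. Among the 16 pathway genes 4 were higher and 3 lower, with Pcsk1n at 1.93 ± 0.10 (SE, edgeR adjusted p of 0.00050) and Scg2 at 2.02 ± 0.17 (edgeR adjusted p of 0.0011). Among the 18 receptors tested 4 were higher and 3 lower, with Npy5r 2.05 ± 0.16 (edgeR adjusted p of 0.00096) and Adcyap1r1 -1.20 ± 0.12 (edgeR adjusted p of 0.0017). No gene of the 3 lists was called for the maternal environment or housing in any class. By the interaction term in all nuclei, 1 of 16 pathway genes was higher and 3 lower in cohort 2 than in cohort 1. Of 19 receptors 1 was lower, and none of 11 genes from the list of other neuropeptides was called, beside 10.4% of all genes in either direction. The maternal difference of Pcsk1, a convertase, was lower in cohort 2 than in cohort 1 (-1.57 ± 0.17, edgeR adjusted p of 2.4e-07), as was that of Oprm1, the mu opioid receptor (-0.90 ± 0.16, edgeR adjusted p of 0.00022).

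The genes most like each of the 10 were taken from the Pearson correlation of mean log2(CPM + 10) over 15 classes and layers, among genes with at least 500 UMIs in all nuclei. For Tac1 they were Syt2 (r = 0.97), a calcium sensor of fast synapses, and Pvalb (r = 0.97). Pvalb was among the markers that named the PV class, so its match to a gene high in PV nuclei was partly set by the naming. For Sst they were Tmcc3 (r = 0.83) and Cyb561d2 (r = 0.81), for Vip Gm39185 (r = 0.95) and Mgat2 (r = 0.93), and for Npy the first was Sox1ot (r = 0.90). Cort was most like Mme (r = 0.93), which encodes the peptidase neprilysin, and Kcnab3 (r = 0.93). Cck was most like Rps25 (r = 0.90) and Rpl37a (r = 0.90), both ribosomal protein genes. Penk was most like Hmcn1 (r = 0.87) and Fbln2 (r = 0.86), Pdyn like Smc2 (r = 0.88) and Tnni3k (r = 0.85), Crh like Gng3 (r = 0.90) and Plrg1 (r = 0.90), and Vgf like Igsf3 (r = 0.89) and Krtcap2 (r = 0.88). The points share libraries and depth, and the profiles of Crh, Pdyn, Cort and Penk rest on 103 to 429 UMIs.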

How the data were processed

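Libraries were made with the 10x Chromium 3′ V3 kit. Per the labels, the authors counted UMIs per barcode with Cell Ranger 6.0.0 on mm10, and by the methods introns were included; the deposited values are raw counts of all barcodes, with no removal of free RNA, and a file header names an earlier Cell Ranger. Nuclei needed 500 to 4000 genes, at most 1% mitochondrial UMIs and a library minimum of UMIs set with the study's numbers of nuclei. The numbers kept differ from the study's in every library. Background droplets had 30 to 2000 UMIs and lay under the minimum of their library. Cohorts were clustered apart (scanpy 1.11.5, analytic Pearson residuals of 3000 genes, 35 components, 20 neighbours, leidenalg 0.10.2 at resolution 0.6) without the 10 genes, and named from marker lists; the naming score was adjusted after clusters were seen. No doublets were removed in the reported values. The alternative removed the 6% of nuclei with the highest scrublet scores.

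Counts were summed per library and class and tested with edgeR 4.0.16 (TMM, filterByExpr, quasi-likelihood, R 4.3.3, Benjamini-Hochberg over all genes at 0.05), with cohort, maternal environment and housing as terms and 2 residual degrees of freedom; the cohort term is the block for the replicate number, which in the labels is the cohort. Same-cohort libraries deviated together (r = 0.79 over 12826 genes). DESeq2 1.42.0 was the other tool. SEs of edgeR follow from its F. Nothing shows separate replicates of a condition within a cohort. SI libraries are all of cohort 2, so the cohort term compares GH libraries and the housing term compares libraries of cohort 2. In the fit with cohort, maternal environment and housing, p-values of each term measure how far the Run to Sed difference varied between the 3 pairs. They do not measure a spread of replicate libraries. In the interaction fit, and without a library of cohort 1, this rests on the GH and SI pairs of cohort 2 alone. Ratios of 2 libraries carry exact 95% counting intervals, with 0.5 added where 1 side was 0. Named genes were all 10, the 2 most alike genes of each (1 of them is not reported here), and of the pathway lists up to 3 per comparison with the smallest adjusted p. The maternal term was also run on simulated counts for all nuclei and SST nuclei, and no outcome of that is reported here. The 10 genes and all lists were chosen with earlier results of these data known. Gene positions are from GENCODE M21 and promoters from RefSeq (GRCm38.p6).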

Additional observations from a re-analysis of the deposited data

Results flagged for a closer look

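The maternal difference of Cck in all nuclei differed between the cohorts by an interaction test, at -0.43 on the log2 scale for cohort 2 minus cohort 1. That is 1 of 10 genes beside 10.4% of all genes, in a fit with 1 residual degree of freedom, and in pyramidal nuclei the difference of -0.40 was not called (edgeR adjusted p of 0.10). The next differences are of sign, and most rest on few UMIs. The log2 ratio of Run to Sed was below 0 in cohort 1 and above 0 in both pairs of cohort 2 for Sst in SST nuclei (-0.17 in cohort 1), Npy in NPY nuclei (-0.92), Tac1 in PV nuclei (-0.61), Crh in VIP nuclei (-1.74, from 2 and 4 UMIs), Cort in PV nuclei (-1.33) and Cort in all nuclei (-0.20). For Cort in PV nuclei the cohort 2 counts were 30 UMIs in RunGH against 0 in SedGH. By the interaction term, Sst in SST nuclei (0.32, edgeR adjusted p of 0.88), Npy in NPY nuclei (1.59, edgeR adjusted p of 0.83), Tac1 in PV nuclei (1.13, edgeR adjusted p of 0.65), Cort in PV nuclei (2.68, edgeR adjusted p of 0.23) and Cort in all nuclei (1.01, edgeR adjusted p of 0.31) were not called, and Crh in VIP nuclei was not tested. The ratio of SI to GH was below 0 in Run and above 0 in Sed for Sst in SST nuclei (-0.36 in Run), Vip in VIP nuclei (-0.41), Npy in all nuclei (-0.18), Penk in VIP nuclei (-1.46), Pdyn in all nuclei (-0.020), Crh in all nuclei (-0.71), Cort in PV nuclei (-0.95) and Cort in all nuclei (-0.37), and the difference between Run and Sed in this ratio was not tested.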

How the results depend on the processing

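All 10 genes stayed lower in nuclei under each of the alternatives, 10 calls each, and their class of highest level among 9 classes, without the Nos1-led nuclei, was kept by 9 or 10 of 10 genes under each. The maternal count of 0 became 2 with DESeq2 (beside 0.442% of all genes in all nuclei and 0.306% in pyramidal nuclei), with a leave-one-out range of 0 to 9, and stayed 0 with no replicate block and without the 51 striatal or septal nuclei. The housing count of 0 stayed 0 throughout. The cohort count of 29 fell to 5 with background subtracted (32 tests) and 19 with nuclei thinned to 1000 UMIs (26 tests, fewer genes passing the filter, beside 4.17% to 22.5% of all genes called higher by class), and ranged from 12 to 31 on leaving out a library, the lowest without RunGH of cohort 2. Other causes were not tested. The median share of nuclei with a UMI in the highest class was 5.20% thinned and 11.2% unthinned.

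Some fitted differences in all nuclei, none of them called, changed sign. With background subtracted the maternal difference was -0.049 for Vip, -0.20 for Cck, -0.28 for Pdyn and -0.28 for Vgf. With no replicate block, the housing difference became 0.47 for Sst, 0.075 for Vip, 0.29 for Npy, 0.41 for Cck, 0.025 for Penk, 0.35 for Crh, 0.59 for Cort and 0.017 for Vgf. Thinned to 1000 UMIs it was 0.15 for Sst and 0.074 for Npy, and the cohort difference of Pdyn was 0.16; with DESeq2 the housing difference of Crh was 0.012. On leaving out a library the housing difference ran from -0.18 to 0.036 for Npy, -0.14 to 0.64 for Pdyn, -0.60 to 0.99 for Crh and -0.49 to 0.31 for Cort. The maternal difference of Pdyn ran from -0.26 to 0.35, and the cohort difference from -0.73 to 0.14 for Pdyn and -0.26 to 1.34 for Crh. Counts of Crh, Pdyn, Cort and Penk limit what single libraries show.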
